A study of Mus musculus with 7 samples.

Results

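Facilitative glucose transporters are membrane proteins of the Slc2a gene family that let sugars pass down their concentration gradient. The genes described here were 10 members of the family, Slc2a1, Slc2a2, Slc2a3, Slc2a4, Slc2a5, Slc2a6, Slc2a8, Slc2a9, Slc2a10 and Slc2a13, out of 22911 named genes on the arrays. Their probes, short DNA spots that each report 1 transcript, were found through the transcript accession of each spot. This gave 13 of 56605 probes. The family was picked because Slc2a2 differed between the groups in this same data set, so the differences of its members are given as a description. Where a count of members past a threshold is given, it is likewise no test of the family.

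Gene expression was measured in isolated pancreatic islets of 7 mice on single-colour arrays, to ask what loss of the secreted signal WNT4 in β-cells does to islet transcripts. The 4 Wnt4βKO mice carried the Pdx1CreER transgene together with Wnt4fl/fl, that is, floxed Wnt4 alleles and a Cre recombinase that acts only after tamoxifen. The 3 control mice were Wnt4fl/fl without the transgene. Both groups were gavaged with tamoxifen at 4 to 5 weeks of age, at 50 mg/mL, and islets were collected at 7 weeks according to the protocol. The titles of the samples also bear an unexplained w11, which could not be set against that age. The animals were male, as the study's methods state. Each array is taken here as 1 mouse, since the study describes pooling of animals only for newborn pups. The Cre was driven by the Pdx1 promoter, and no control carried it, so an effect of the transgene itself and of the loss of Wnt4 cannot be told apart. Other islet cells stayed in the preparation with their own Wnt4 unless they used the Pdx1 promoter. According to the study, a further control sample failed its quality tests and was left out.

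In rodent β-cells, glucose enters mainly through GLUT2, the product of Slc2a2, a carrier of low affinity and high capacity that lets the glucose concentration in the cell follow that of the blood. The metabolism of this glucose then leads to closure of potassium channels, calcium entry and insulin release. Other members carry glucose at low concentrations, carry fructose, urate or myo-inositol, or sit on membranes inside the cell.

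The stretch before the transcription start of Slc2a2 is shown with those of Slc2a1 and Slc2a5, which differed from it in base composition and, on the arrays, in the difference between the groups. The sequences are from RefSeq, mouse build GRCm38.p6, are all on the + strand and hold the 250 bases before the start. They lie at chr3:28697653-28697902 for Slc2a2, chr4:119108495-119108744 for Slc2a1 and chr4:150119094-150119343 for Slc2a5. Each is given 5′ to 3′ with the dinucleotide CG in capitals.
Slc2a2: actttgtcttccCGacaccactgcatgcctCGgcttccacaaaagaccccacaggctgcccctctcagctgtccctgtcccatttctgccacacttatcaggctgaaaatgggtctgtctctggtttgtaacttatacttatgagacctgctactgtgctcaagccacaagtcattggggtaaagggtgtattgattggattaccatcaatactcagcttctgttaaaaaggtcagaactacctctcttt
Slc2a1: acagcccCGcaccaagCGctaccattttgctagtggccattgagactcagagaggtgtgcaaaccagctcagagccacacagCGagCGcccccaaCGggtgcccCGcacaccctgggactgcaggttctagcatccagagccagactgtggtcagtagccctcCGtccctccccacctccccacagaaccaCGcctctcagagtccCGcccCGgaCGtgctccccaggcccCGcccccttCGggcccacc
Slc2a5: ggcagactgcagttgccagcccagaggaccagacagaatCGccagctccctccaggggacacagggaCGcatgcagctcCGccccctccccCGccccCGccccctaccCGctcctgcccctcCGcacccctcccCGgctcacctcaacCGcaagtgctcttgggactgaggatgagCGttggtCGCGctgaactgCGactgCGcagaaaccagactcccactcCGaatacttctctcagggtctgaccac
These 250 bases held 2 CG in Slc2a2, 13 in Slc2a1 and 15 in Slc2a5. The table had a promoter for 8 of the 10 genes, and counts in the 300 bases from 250 before to 50 after the start were compared with 32851 promoters of all genes, whose median was 7 CG. Slc2a2 and Slc2a9 each had 2 CG, and 14.1% of promoters had fewer. Between the groups Slc2a2 differed by -1.54 ± 0.10 and Slc2a9 by 0.03 ± 0.11 (SE, log2). A link between CG count and the difference was not tested. The other 6 genes had 12 (Slc2a10) to 22 (Slc2a6). The letters TAAT, the core bound by many homeodomain proteins, were searched on both strands and occurred once each in Slc2a2, Slc2a8 and Slc2a9. In Slc2a2 the match began 51 bases before the start. It is a match of letters and no evidence of binding, since 58.0% of all promoters held it. The arrays measured transcripts and not promoters.

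Slc2a2 had by far the largest difference of the family. Its probe (A_52_P409988) gave normalized log2 signals of 9.92, 9.95 and 9.88 in the control mice and 8.17, 8.42, 8.32 and 8.57 in the Wnt4βKO mice. All 4 Wnt4βKO values lay below all 3 control values, and the nearest pair was more than 1 log2 unit apart. Control islets averaged 9.91 ± 0.03 (SD, n = 3) and Wnt4βKO islets 8.37 ± 0.17 (SD, n = 4). The difference, Wnt4βKO minus control, was -1.54 ± 0.10 (SE), which is 34.4% of the control signal. A bulk measurement of Slc2a2 alone cannot separate fewer β-cells from less of its RNA per β-cell, and neither was tested. As a description only, none of 12 other β-cell markers had a difference as large. They ran from -0.86 (Ero1b) to 0.30 (Ins1), with a median of -0.00777, and Nkx6-1 was at 0.00 ± 0.09 and Ucn3 at 0.06 ± 0.16 (SE). The probe stood at the 96.0 to 96.1 percentile of all probes on the control arrays and at the 89.2 to 91.3 percentile on the Wnt4βKO arrays. A probe's brightness depends on the probe, so percentiles are no order of transcript abundance. Of the 26151 tested probes, 15 including this one had a difference at or below that of Slc2a2.

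**Figure D1:**
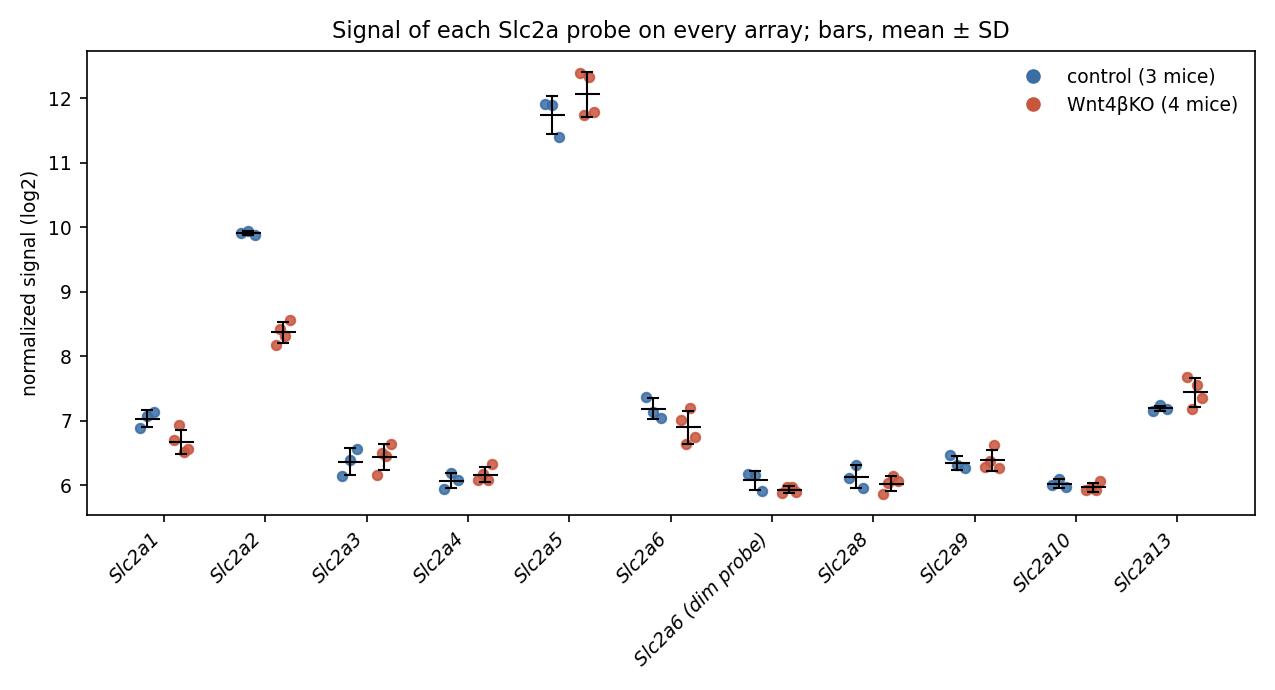
Normalized log2 signal (y axis) of the 11 tested Slc2a probes (x axis) on every array, with 1 point per mouse and bars for the mean ± SD. The Wnt4βKO and control points are separate for Slc2a2 and overlap for each of the others.

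The Slc2a2 difference was negative in each of 20 alternative treatments of the data, between -1.70 and -1.46. The arrays lay in 2 rows of 1 slide. Within row 1, with 1 control and 2 Wnt4βKO arrays, the difference was -1.58, and within row 2, with 2 and 2, it was -1.48. With 1 array left out in turn it lay between -1.62, without Wnt4βKO replicate 4, and -1.46, without Wnt4βKO replicate 1. Markers of acinar cells, the enzyme-secreting cells around islets, moved with the groups. Their mean log2 signal was 13.39 to 13.63 in the control and 12.45 to 13.30 in the Wnt4βKO mice. With this mean as a covariate the Slc2a2 difference was -1.46 ± 0.15 (SE), against an SE of 0.10 without it. The mean did not overlap between the groups, so its part and that of the genotype cannot be told apart. For the genes below whose values under this covariate are given, errors widened and several differences also moved toward 0. A threshold lost there can come from either, which was not tested.

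**Figure D2:**
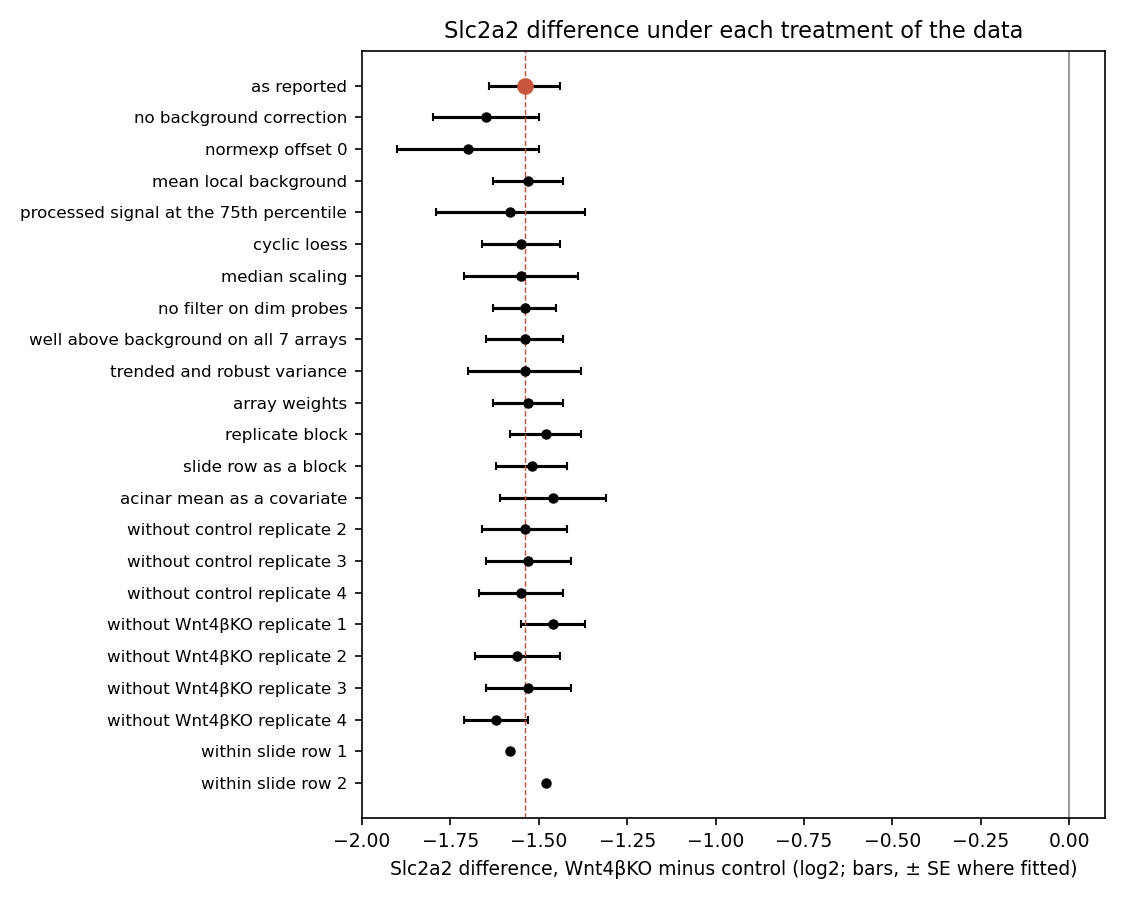
Slc2a2 difference between Wnt4βKO and control islets (x axis, log2) as reported and under each other treatment of the data (y axis). Bars are ± SE, the 2 points within a slide row have none, and every point lies between -1.70 and -1.46.

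Among the other glucose carriers, Slc2a1 encodes GLUT1, which supplies many tissues with glucose at rest and is the main carrier of human β-cells besides GLUT2. Its probe (A_51_P464738) gave 6.89, 7.07 and 7.14 in control and 6.70, 6.93, 6.52 and 6.56 in Wnt4βKO mice. The Wnt4βKO values were lower on average, but replicate 2 lay above the lowest control, so the groups overlapped. The difference was -0.36 ± 0.12 (SE), or 78.2% of control, and was -0.32 and -0.45 within the slide rows. It was negative in all 20 alternatives, from -0.69 with the scanner's processed signal to -0.30. With a background offset of 0 it was -0.64 ± 0.24 (SE), so the percentage of control holds only for the reported background treatment.

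Slc2a3 encodes GLUT3, the high-affinity carrier of neurons, and Slc2a4 encodes GLUT4, which insulin brings to the surface of muscle and fat cells. The Slc2a3 probe (A_52_P354744) gave 6.14, 6.39 and 6.56 in control and 6.16, 6.50, 6.45 and 6.64 in Wnt4βKO mice. The groups lay over the same range, with a difference of 0.08 ± 0.14 (SE). It turned to -0.05 with the processed signal and to -0.03 without control replicate 2, and was -0.22 in one slide row and 0.28 in the other. On no array was a second Slc2a3 probe (A_51_P384222) well above background. The Slc2a4 probe (A_51_P217498) gave 5.95, 6.19 and 6.08 in control and 6.08, 6.17, 6.08 and 6.33 in Wnt4βKO mice, again over one range. Its difference was 0.09 ± 0.10 (SE), but 0.35 with a background offset of 0, 0.40 with the processed signal and 0.03 without control replicate 2.

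Slc2a5 encodes GLUT5, the fructose carrier known from the intestine. Its probe (A_51_P514405) gave 11.92, 11.90 and 11.40 in control and 12.40, 11.74, 12.33 and 11.79 in Wnt4βKO mice. Wnt4βKO replicates 1 and 3 lay above every control, and replicates 2 and 4 lay within the control range. The difference was 0.33 ± 0.21 (SE), or 125% of control. It was 0.67 in the first slide row and 0.15 in the second, and 0.16 without control replicate 4, the lowest array. The probe was the brightest of the family, at the 98.7 to 99.1 percentile on control and the 99.0 to 99.4 percentile on Wnt4βKO arrays.

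Slc2a6, Slc2a8 and Slc2a10 encode GLUT6, GLUT8 and GLUT10, which are found largely on membranes inside the cell. The brighter Slc2a6 probe (A_55_P1960238) gave 7.37, 7.14 and 7.05 in control and 7.01, 6.64, 7.20 and 6.75 in Wnt4βKO mice. Wnt4βKO replicates 1, 2 and 4 were below every control and replicate 3 was inside their range. The difference was -0.29 ± 0.15 (SE). The dimmer Slc2a6 probe (A_55_P1960237), well above background on 6 arrays, gave -0.15 ± 0.09 (SE), so both probes had the same sign. The probe of Slc2a8 (A_51_P358171), well above background on 5 arrays, ran from 5.96 to 6.32 in control and from 5.87 to 6.14 in Wnt4βKO mice, with a difference of -0.11 ± 0.11 (SE). That of Slc2a10 (A_51_P382912) ran from 5.97 to 6.10 and from 5.92 to 6.06, with a difference of -0.06 ± 0.07 (SE). In all 3 genes the groups overlapped. These dim probes depended on how background was handled. With the processed signal the difference of the dimmer Slc2a6 probe was -0.87, that of Slc2a8 -0.89 and that of Slc2a10 -0.38. The difference of Slc2a8 was instead 0.02 once the acinar mean was a covariate, and -0.01 when control replicate 3 was left out.

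Slc2a9 encodes GLUT9, a urate carrier, and Slc2a13 encodes HMIT, which carries myo-inositol together with protons. The Slc2a9 probe (A_66_P103342) gave 6.47, 6.31 and 6.27 in control and 6.28, 6.37, 6.62 and 6.27 in Wnt4βKO mice. The groups lay over one range, with a difference of 0.03 ± 0.11 (SE) that changed sign when control replicate 4 or Wnt4βKO replicate 3 was left out. On no array was a second Slc2a9 probe (A_52_P335166) well above background. The Slc2a13 probe (A_55_P2041011) gave 7.16, 7.24 and 7.18 in control and 7.68, 7.18, 7.56 and 7.35 in Wnt4βKO mice. Here 3 Wnt4βKO values lay above every control and replicate 2 did not. The difference was 0.25 ± 0.12 (SE), or 119% of control, and 0.25 in each slide row, but 0.05 with the acinar mean as a covariate. No probe of Slc2a7 or Slc2a12, the genes of the family left out of the list, was well above background on any of the arrays. Slc2a7 is the neighbour of Slc2a5 on chromosome 4, with 0 genes between them.

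In total, 11 of the 13 probes were well above background on at least 3 arrays and entered the fit, with at least 1 for each of the 10 genes, and 9 were so on all 7. Of these 11, 6 had a negative and 5 a positive difference. The Slc2a2 probe was the only one past an adjusted limma p of 0.05, against 0.0153% of all tested probes, and it was past it in 12 of the 20 alternatives. The Slc2a2 and Slc2a1 probes were past an unadjusted p of 0.05, against 7.02%. Slc2a2 alone had groups that did not overlap, against 7.28%. Since the family was chosen from this contrast, nothing is read from these shares. The median difference was -0.06 over the 11 probes, -0.02 without Slc2a2 and 0.00105 over all tested probes. The other 10 probes lay within 0.4 of 0 as reported, but not under every background treatment. With an offset of 0 the differences were -0.64 ± 0.24 (SE) for Slc2a1 and -0.41 ± 0.37 (SE) for Slc2a8. The brighter and dimmer Slc2a6 probes then gave -0.48 ± 0.27 and -0.62 ± 0.31 (SE). Slc2a3, Slc2a4, Slc2a5, Slc2a9, Slc2a10 and Slc2a13 stayed within 0.4 of 0 there. With the processed signal the largest was -0.89 ± 0.76 (SE), for Slc2a8.

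**Figure D3:**
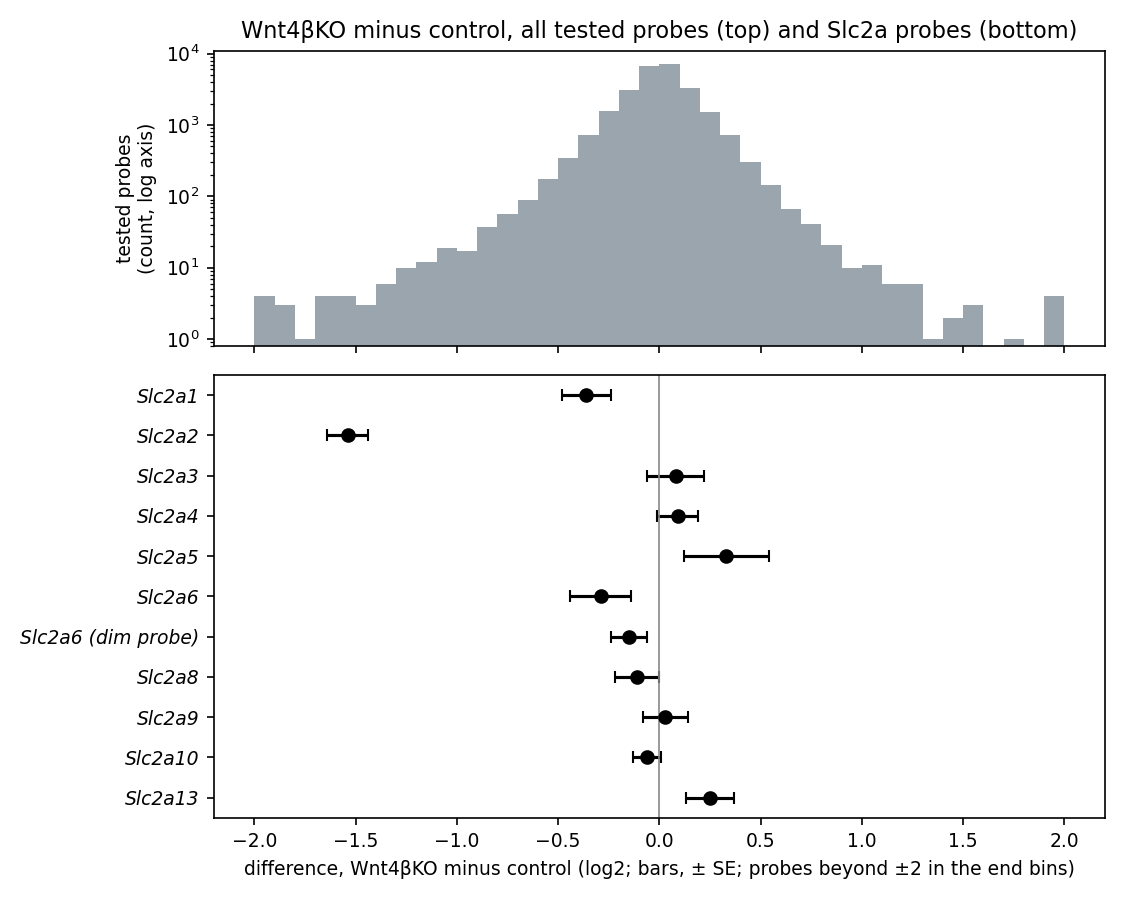
Differences between Wnt4βKO and control islets (x axis, log2) for all 26151 tested probes as counts per bin (top, log axis) and for the 11 Slc2a probes (bottom, bars ± SE). Slc2a2 lies at -1.54, in the lower tail of all probes, and the other 10 lie between -0.36 and 0.33.

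Signals of islet cell markers and of the deleted gene were looked at once. Between 45.5% and 49.0% of non-control spots were well above background on each array, and no spot was saturated. All 12 β-cell, 7 α-cell and 4 δ- and PP-cell markers were among the tested genes. So were all 14 acinar, 7 endothelial and 7 mesenchymal markers, so being tested is no check of islet origin or purity. The Wnt4 probe (A_66_P139703) differed by -0.49 ± 0.17 (SE), with an adjusted limma p of 0.651, and the groups overlapped. Its position relative to the deleted part of the gene was not determined, so it is no direct check of the labels.

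β-cell markers were next set beside Slc2a2. The summed linear signal of the 12 was 122053 to 128965 in control and 126439 to 141680 in Wnt4βKO mice. This sum rests largely on the insulin probes. Ins2 ranked 1 or 2 among all probes on every array, so quantile normalization fixes its value. The sum therefore cannot gauge the number of β-cells. None of them passed the adjusted threshold. At an unadjusted limma p under 0.05, Ins1, which encodes an insulin, was higher by 0.30 ± 0.11 (SE, adjusted p = 0.651), a difference that was -0.03 under cyclic loess normalization. Ero1b, an oxidase of insulin folding, was lower, at -0.86 ± 0.27 (SE, adjusted p = 0.608), and Glp1r, the receptor of the incretin GLP-1, was lower too, at -0.47 ± 0.18 (SE, adjusted p = 0.675). In both the groups overlapped. With the acinar mean as a covariate the differences were 0.24 ± 0.16 for Ins1, -0.51 ± 0.38 for Ero1b and -0.34 ± 0.27 (SE) for Glp1r. These lay nearer 0 than without it and had wider errors, and none was past the unadjusted threshold. Ins2 differed by 0.01 ± 0.07 (SE).

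Transcription factors known to act in β-cells differed little in the same islets. Of 17 tested, 0 passed the adjusted threshold and 0 were lower at the unadjusted one, and the median difference was 0.00026. Pdx1, a regulator of Slc2a2, gave 7.23, 7.82 and 7.09 in control and 7.37, 7.18, 7.73 and 7.17 in Wnt4βKO mice. The groups shared one range, with a difference of -0.02 ± 0.21 (SE) whose sign turned in 7 of the 20 alternatives. The differences were 0.10 ± 0.21 for Mafa, 0.00 ± 0.09 for Nkx6-1 and -0.21 ± 0.18 (SE) for Foxa2, which was missing on Wnt4βKO replicate 4.

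The enzymes that act on glucose after its entry were mostly near 0. Of 25 tested genes of glucose phosphorylation and glycolysis, 0 passed the adjusted threshold, and 2 were higher and 1 lower at the unadjusted one, against 4.38% and 4.61% of 13666 genes. The difference of G6pc2, the islet glucose-6-phosphatase, was -0.06 ± 0.16 (SE), and that of the hexokinase Hk1 was 0.36 ± 0.31 (SE). The 2 higher genes were Eno2, an enolase, at 0.31 ± 0.12 (SE) and Pfkl, a phosphofructokinase subunit, at 0.18 ± 0.07 (SE), with limma adjusted p = 0.68 and adjusted p = 0.688. Pfkfb2, which makes an activator of phosphofructokinase, was lower, at -0.52 ± 0.21 (SE, adjusted p = 0.688) on its brightest probe, while its other probes gave -0.15 each. With the acinar covariate these 3 were 0.38 ± 0.18, 0.17 ± 0.11 and -0.66 ± 0.32 (SE). None was then past the unadjusted threshold, although Eno2 and Pfkfb2 lay further from 0, because the errors were wider.

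Of the genes that hold, move or glycosylate glucose transporters, Txnip differed most. Txnip encodes an arrestin-like protein that promotes removal of GLUT1 from the cell surface and whose transcript rises with glucose entry. Its brightest probe (A_66_P131361) gave 11.62, 11.37 and 11.43 in control and 10.26, 10.55, 10.88 and 10.73 in Wnt4βKO mice. Every Wnt4βKO value lay below every control. The difference was -0.87 ± 0.15 (SE, limma, adjusted p = 0.388), and the second probe also gave -0.87 (adjusted p = 0.309). It passed the unadjusted threshold in 20 of 20 alternatives and was between -0.96 and -0.61. Arrdc4, a relative of Txnip that also responds to glucose, was lower, at -0.51 ± 0.21 (SE, adjusted p = 0.702) on its brightest probe and gave -0.07 on the other. Gipc1, an adaptor that binds the tail of GLUT1, was higher by 0.28 ± 0.09 (SE, adjusted p = 0.608). Mgat4a, whose enzyme glycosylates GLUT2 and keeps it at the surface, differed by -0.07 ± 0.09 (SE). With the acinar mean as a covariate the differences were -0.61 ± 0.19 for Txnip, -0.17 ± 0.28 for Arrdc4 and 0.18 ± 0.13 (SE) for Gipc1. These lay nearer 0 than without it and had wider errors, and only that of Txnip was past the unadjusted threshold. In the whole list of 17 genes, all tested, 0 passed the adjusted threshold.

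In 4 further lists 1 or 2 genes each were past the unadjusted threshold, which 8.99% of all 13666 genes passed, so nothing is read about these pathways from the counts. Of 6 tested genes of fructose handling, Fbp1, a gluconeogenic phosphatase, gave 9.34, 9.18 and 9.46 in control and 10.11, 10.62, 9.88 and 10.56 in Wnt4βKO mice. Every Wnt4βKO value lay above every control, with a difference of 0.96 ± 0.19 (SE, limma, adjusted p = 0.48). Among 11 tested sodium-coupled and other sugar carriers, the kidney cotransporter Slc5a2 was lower, at -0.51 ± 0.19 (SE, adjusted p = 0.675), and so was Slc37a4, which carries glucose 6-phosphate into the endoplasmic reticulum, at -0.50 ± 0.21 (SE, adjusted p = 0.703). Slc5a1, the intestinal sodium-coupled carrier, had no probe well above background. Beside the inositol carrier Slc2a13 stood Isyna1, which makes inositol phosphate from glucose 6-phosphate and was higher by 0.48 ± 0.13 (SE, adjusted p = 0.567), the 1 of 8 inositol genes past the unadjusted threshold. Of 10 hypoxia-inducible genes tested, since Slc2a1 is a known target of that response, only Pdk1 was past it, at 0.44 ± 0.14 (SE, adjusted p = 0.613). Its other probes gave -0.02 and 0.41. With the acinar mean as a covariate the differences were -0.11 ± 0.21 for Slc5a2, -0.60 ± 0.33 for Slc37a4 and 0.24 ± 0.16 (SE) for Isyna1. Those of Pdk1 and Fbp1 were 0.31 ± 0.21 and 1.04 ± 0.30 (SE). Errors were wider than without it. The differences of Slc5a2, Isyna1 and Pdk1 were also nearer 0, and those of Slc37a4 and Fbp1 were further from it. Only that of Fbp1 was past the unadjusted threshold.

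Markers of the other cell types were read over the same arrays. All 14 acinar markers were tested, 12 with a negative difference, 4 of them past the unadjusted threshold (Ptf1a, Pnliprp1, Rbpjl and Cela3b). Their median difference was -0.473, and their summed linear signal was 302891 to 343892 in control and 206147 to 303519 in Wnt4βKO mice. The part of this in the transporter values was not tested, and the covariate given above cannot separate it from the genotype. Of the α-cell, δ- and PP-cell, duct, endothelial, immune and mesenchymal markers, 0 passed the unadjusted threshold in either direction. Their list medians ran from -0.0437 in duct to 0.114 in immune markers, beside 0.00539 over all tested genes. Over all 16 lists, 152 genes were tested, 19 (12.5%) were past the unadjusted threshold, 8 higher and 11 lower, against 8.99% of all genes, and 0 were past the adjusted one, against 0.022%, by limma, the only tool run.

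**Figure D4:**
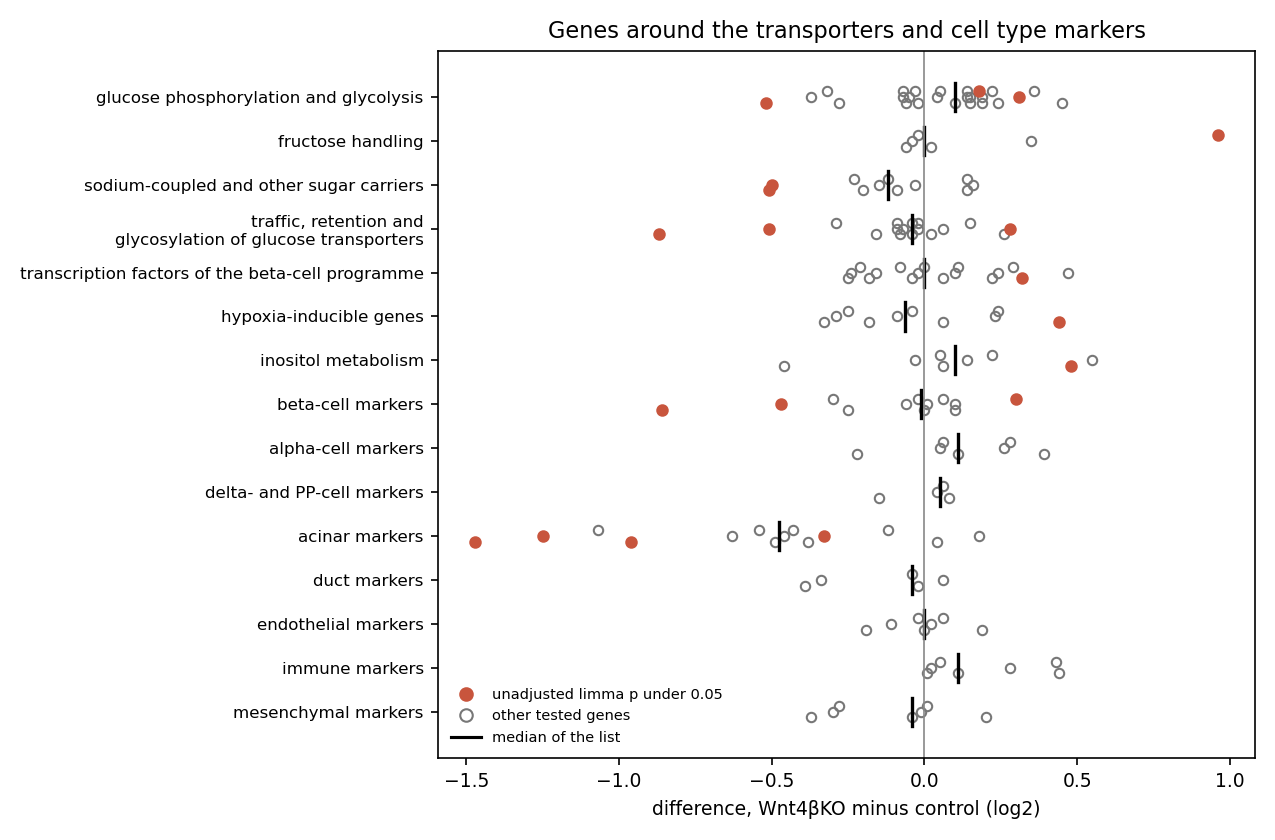
Difference between Wnt4βKO and control islets (x axis, log2) for each tested gene of 15 lists (y axis), filled where the unadjusted limma p was under 0.05, with a line at each list median. The acinar list lies lowest, with a median of -0.473, and Txnip and Fbp1 stand at -0.87 and 0.96 in their lists.

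The genes whose signal followed that of Slc2a2 most closely over the 7 arrays were sought by the root mean square distance between centred log2 profiles, over 13636 genes with 1 probe each. The 5 nearest were Kdm2b (0.22), which encodes a histone demethylase, Ttc28 (0.342), St8sia5 (0.342), a sialyltransferase, Gpa33 (0.353), a surface antigen of intestinal epithelium, and Npas4 (0.356), a transcription factor induced by calcium entry. The median gene was at 0.791 and the sixth nearest at 0.357. In all 5 every Wnt4βKO value was below every control value, as in Slc2a2, a feature that the measure itself favours. For Kdm2b the brightest probe differed by -1.39 ± 0.11 (SE), but its other probes by -0.33 and 0.13. For Ttc28 both probes were lower, at -0.93 and -1.03. None of the other transporters was close, with distances from 0.616 for Slc2a1 to 0.99 for Slc2a5. Of the 5 named, 1 to 5 stayed among the nearest when an array was left out, so the order is not firm.

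**Figure D5:**
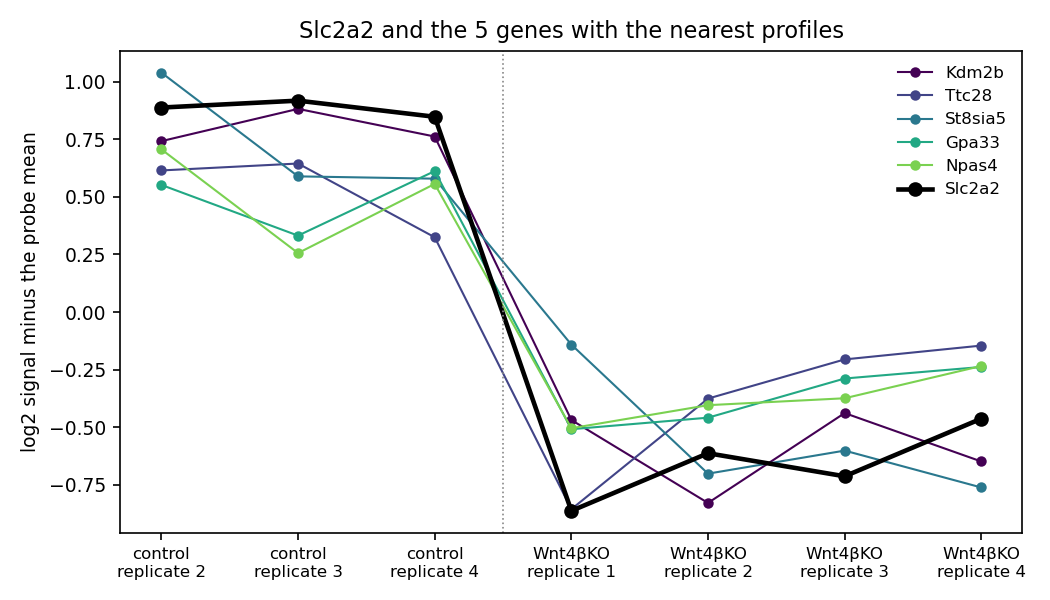
Log2 signal minus the probe's mean over the arrays (y axis) for Slc2a2 and its 5 nearest genes on each of the 7 arrays (x axis). Lines only join the points of a gene, and all 6 genes are above their mean on the 3 control and below it on the 4 Wnt4βKO arrays.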

How the data were processed

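Islet RNA of 3 control and 4 Wnt4βKO mice was hybridised to single-colour Agilent arrays, with 50 ng of RNA labelled per array according to the labels. The authors deposited scanner output with spot intensity on a linear scale, not normalized between arrays. The labels name Feature Extraction 9.1 and the file headers 12.0.1.1. The settings of the study's methods were followed. Median spot signals were background corrected with normexp at an offset of 50 over all spots, control spots were removed, and the log2 values were quantile normalized. Spots marked as outliers were set to missing and repeated spots averaged. A probe was tested if at least 3 of the 7 arrays had it well above background (26151 of 56605, with 65 missing values) as Wnt4βKO minus control with limma 3.58.1 in R 4.3.3. Tests were two-sided, and p-values were adjusted over all tested probes by Benjamini-Hochberg. Other steps used Python 3.11.15.

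Probes were named by matching accessions to the RefSeq table of GRCm38.p6, which named 32994 probes (58.3%). Every Slc2a probe was kept. Other genes were represented by their brightest tested probe. The members and lists were chosen with earlier results of these data known. Named genes were the 10 transporters, at most 6 genes of each list past an unadjusted p of 0.05, a fixed set of β-cell and glucose-handling genes, and the 5 profiles nearest to Slc2a2. Some genes that this rule names are not reported here. The pipeline was tested on simulated data.

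Samples were grouped by genotype. Alternatives changed 1 step at a time: background correction (none, offset 0 or the mean local background), the signal (processed, divided by the 75th percentile), normalization (cyclic loess or median scaling), other filters, a trended and robust variance, array weights, blocks for the replicate number and slide row, the acinar mean as a covariate, and each array left out. Values within a slide row were added after seeing the data. A further deposited table held log2 values of 36693 probes. It was set against the scanner data and left out, since the columns differed from them (r with the array of the same sample between -0.081 and 0.093 after centring). The number of arrays limits the precision.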

Additional observations from a re-analysis of the deposited data

Results flagged for a closer look

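Among 45 values examined for the transporters and the named genes in the 4 Wnt4βKO mice, 2 had 1 array far from the others. For Glp1r, Wnt4βKO replicate 1 had a log2 signal of 6.92 and the others 7.09 to 7.12, so that the gap was 0.836 of the group's range. For Ins2, Wnt4βKO replicate 3 had 15.68 and the others 15.82, a gap of 1.0 of the range. These are the highest and second highest values on each of the 4 Wnt4βKO arrays after quantile normalization, so the Ins2 gap is a step of 1 rank and no measure of an outlying array. The test flags about 1 in 20 groups by chance. None of the Slc2a probes was among them.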

How the results depend on the processing

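The Slc2a2 difference kept its sign in all 20 alternatives, and its size moved most with an offset of 0 in the background correction, to -1.70. It lost the adjusted limma threshold in 8: the processed signal, median scaling, the replicate block, the acinar covariate, and without control replicate 2, 3 or 4 or Wnt4βKO replicate 3. Nothing is read from this count, because Slc2a2 was picked from this same contrast. The percentile of Slc2a2 on control arrays was 95.4 with the processed signal, against 96.1. Probes past the adjusted threshold, 4 as reported, were 7 with the processed signal, 2 with the acinar covariate and 2 to 5 without 1 array. At the unadjusted threshold, 1835 probes and 19 list genes became 770 and 9 with median scaling and 687 and 6 with the acinar covariate, 2921 probes without the filter, and 11 to 23 list genes without 1 array. Non-overlapping probes, 1903 as reported, were 1120 with median scaling, 3204 without the filter and 2683 to 4363 without 1 array. Of the 5 profiles nearest to Slc2a2, 3 remained without background correction, 2 with the processed signal and 1 to 5 without 1 array. The Ins1 difference turned to -0.03 under cyclic loess. The cause of these shifts was not tested.

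The replicate numbers name different mice. Deviations from the group means had r = -0.129, 0.230 and -0.00565 between arrays of the same number, for replicates 2, 3 and 4. The highest r with a Wnt4βKO array of another number was 0.093, 0.016 and 0.160, so only replicate 3 was nearest its own number. So few values cannot exclude pairing. The study describes the controls as littermates, and litters were not used in the fit. With the number as a replicate block the Slc2a2 difference was -1.48 and 2 probes passed the adjusted threshold. Mean spot signals, a block for slide or scan, and the deposited table of log2 values were planned but not run, because the files used here hold the median only, there was 1 slide and 1 scan, and the table's columns did not match the arrays. Signal over background limits the dimmest probes, Slc2a4, Slc2a8, Slc2a10 and the second Slc2a6 probe.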
